A study of Mus musculus with 67 samples.

Results

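The endothelin genes were read as 6 genes in mouse retina and retinal pigment epithelium (RPE): the ligand genes Edn1, Edn2 and Edn3, the receptor genes Ednra and Ednrb, and Ece1, which codes for endothelin-converting enzyme 1. They were chosen by symbol, with their values in these libraries already known, and all 6 were found among the 16930 Ensembl identifiers of the retina table and the 16714 of the RPE table. All 6 also passed the filter on low values, a CPM (read counts scaled to library size) of at least 1 in at least 3 libraries. Because the choice used these values, the levels of the 6 genes are a description and carry no test.

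The libraries came from C57BL/6J mice of the photosensitive genotype abca4-/- rdh8-/-, which lack the transporter Abca4 and the retinol dehydrogenase Rdh8, and every group, the reference included, carried both deletions. The reference group is labelled NB, an abbreviation that the labels do not spell out, and the other groups are labelled 6h, 1d and 3d. What the times are counted from is not stated in the labels, nor is an age. Retina had 6 libraries of NB, 3 of 6h, 4 of 1d and 4 of 3d; RPE had 5, 3, 4 and 4 in the same order. Each library was polyadenylated, stranded RNA from both eyes of 1 mouse, with RPE cells shaken off the eyecup. Of the 67 samples of the series 33 were RNA libraries, and the other 34, of chromatin accessibility, were not analysed here.

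Endothelins are short vasoactive peptides. Each is cut from a longer precursor, first by furin-type proteases and then by a converting enzyme such as Ece1, and acts through G protein-coupled receptors: Ednra prefers endothelin-1 and endothelin-2, whereas Ednrb binds all of the endothelins alike. In the eye, Edn2 is known as a gene that photoreceptors switch on under injury, Ednrb as a receptor of Müller glia and astrocytes, and the pair of Edn3 and Ednrb as signals needed by the melanocyte lineage.

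The 3 ligand genes lie on different chromosomes and gave different time courses, so their promoter windows are shown for comparison. In RefSeq's annotation of GRCm38.p6 Edn2 spans chr4:120161206-120167360, Edn1 chr13:42301476-42307990 and Edn3 chr2:174760619-174784042, all on the plus strand. The windows are the 250 bases before each annotated start, at chr4:120160956-120161205, chr13:42301226-42301475 and chr2:174760369-174760618, written 5′ to 3′ in lower case, with matches to any of 6 searched motifs in capitals.
Edn2: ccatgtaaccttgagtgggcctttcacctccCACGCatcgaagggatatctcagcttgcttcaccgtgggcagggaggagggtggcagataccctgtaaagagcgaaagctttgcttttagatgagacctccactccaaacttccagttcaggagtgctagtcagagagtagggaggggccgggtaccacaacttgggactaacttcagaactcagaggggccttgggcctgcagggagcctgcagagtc
Edn1: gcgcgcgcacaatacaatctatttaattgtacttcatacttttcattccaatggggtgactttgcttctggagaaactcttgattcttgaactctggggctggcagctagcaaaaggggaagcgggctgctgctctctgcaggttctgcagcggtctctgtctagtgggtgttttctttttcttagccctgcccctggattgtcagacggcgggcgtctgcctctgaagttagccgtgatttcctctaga
Edn3: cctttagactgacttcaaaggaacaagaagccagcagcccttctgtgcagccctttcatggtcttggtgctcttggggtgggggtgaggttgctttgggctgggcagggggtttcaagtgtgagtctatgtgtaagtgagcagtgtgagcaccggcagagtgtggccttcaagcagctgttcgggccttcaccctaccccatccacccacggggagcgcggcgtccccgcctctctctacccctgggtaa
Both strands were searched for AP-1 (TGANTCA), STAT (TTCNNNGAA), the hypoxia response cores ACGTG and GCGTG, NF-kappaB and TATAAA. Of 32851 promoter windows of this length, 6.75% held the AP-1 letters, 7.02% the STAT letters, 16.57% ACGTG, 28.16% GCGTG, 7.25% NF-kappaB and 12.37% TATAAA. The capitals in the Edn2 window are its single match, GCGTG on the minus strand, whose first base lies 219 bases before the start; the Edn1 and Edn3 windows held no match. A match is a run of letters and no evidence of binding. GC content was 55.6% for Edn2, 50.4% for Edn1 and 59.2% for Edn3.

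Among the receptor and enzyme genes, Ednra lies at chr8:77663029-77724452, Ednrb at chr14:103814615-103844508 and Ece1 at chr4:137862237-137965229, the last on the same chromosome as Edn2. The Ednra window held no match to the 6 motifs. The Ednrb window, which sits at a start inside the annotated gene, held GCGTG 99 and NF-kappaB 80 bases before that start. Ece1 had several windows. The one at its annotated start held GCGTG 199 bases before it, and an overlapping window held GCGTG 242 bases before its own start. A further window, at an inner start, held ACGTG at 90 and 89 and GCGTG at 74 and 33 bases before that start. The last held no match.

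Read totals, recovered from the CPM steps, formed 2 sets by depth. In retina the 6h libraries and NB A1 and A2 were the deeper set, with 22.6 to 32.4 M reads, and the remaining 12 had 9.45 to 15.2 M. In RPE the 6h libraries and NB A1 had 23.1 to 26.8 M reads and the remaining 12 had 11.5 to 14.4 M. Retina libraries carried rod markers, summed over 5 genes, at 22505 to 25613 CPM in NB, 14843 to 18346 at 6h, 7552 to 13349 at 1d and 13771 to 15284 at 3d. RPE libraries carried 6 RPE markers at a sum of 12699 to 22412 CPM in NB, 7622 to 10982 at 6h, 5568 to 10054 at 1d and 12944 to 22942 at 3d. They also carried rod markers at 1354 to 6084 CPM and 6 surface epithelium genes, Krt5 among them, at 10370 to 47350 CPM. The RPE libraries were thus not of RPE cells alone. In bulk tissue, fewer cells of a type and less RNA per cell cannot be told apart.

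Retinal Edn2 was the ligand gene with the widest range. In NB it read 1.07 CPM at the lowest, 3.11 at the median and 4.68 at the highest (30 to 66 reads a library). At 6h the 3 libraries read 4.00, 6.47 and 7.0 CPM. At 1d the 4 libraries read 92.1, 91.2, 61.7 and 80.7 CPM, and at 3d they read 50.3, 44.4, 39.0 and 42.9. Every 1d library lay above every 3d library, and every 3d library above every 6h and NB library; only 6h and NB overlapped. The means were 3.00 ± 1.26 (SD, n = 6), 5.82 ± 1.60 (n = 3), 81.4 ± 14.1 (n = 4) and 44.2 ± 4.69 (n = 4), which put 1d at 27.1 times and 3d at 14.7 times the NB mean. Between 1d and 3d the mean came down 1.84-fold.

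On the log2(CPM + 0.5) scale the Edn2 difference from NB was 0.91 ± 0.26 (SE) at 6h, 4.63 ± 0.24 at 1d and 3.76 ± 0.24 at 3d. The 6h value depends on which NB libraries it is set against. The deeper NB libraries, A1 and A2, read 1.07 and 2.19 CPM, and the shallower ones, B1 to B4, read 3.18, 4.68, 3.04 and 3.85, so these NB sets did not overlap. Against A1 and A2, which share the depth set of 6h, the 6h difference was 1.59, and all 3 of the 6h libraries lay above both. Against B1 to B4, which share the set of 1d and 3d, the differences were 4.29 at 1d and 3.43 at 3d. In the authors' deposited table the shrunken log2 fold changes of Edn2 were 1.14, 4.93 and 4.05 for 6h, 1d and 3d.

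**Figure D1:**
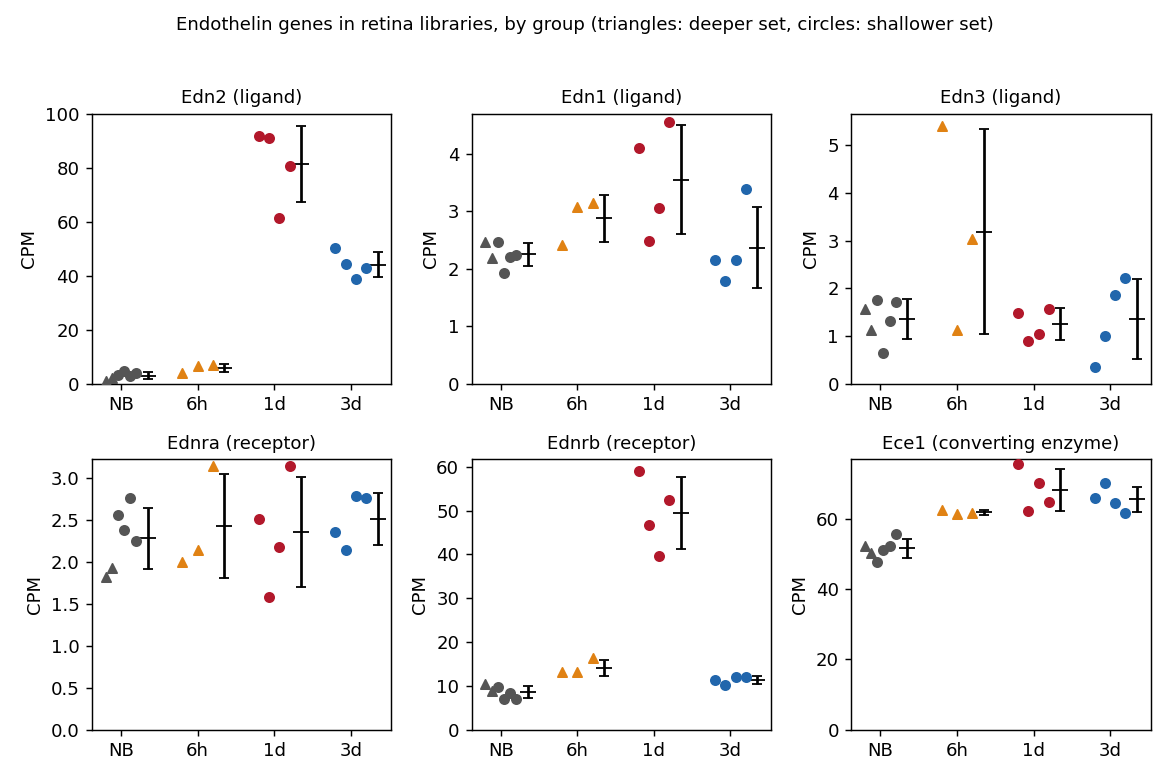
CPM of the 6 endothelin genes in each retina library, by group, with 1 panel per gene and its own axis from 0; triangles are deeper libraries, circles shallower ones, and black bars the mean and SD. Edn2 reads 61.7 to 92.1 CPM at 1d and 39.0 to 50.3 at 3d, whereas Ednrb reaches 39.6 to 59.1 at 1d and is at 10.2 to 12 at 3d.

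Retinal Edn1, the gene of the endothelin best known from vascular endothelium, moved far less. NB libraries read from 1.93 to 2.47 CPM (median 2.23), 6h libraries 2.41, 3.07 and 3.15, 1d libraries 4.10, 2.48, 3.05 and 4.55, and 3d libraries 2.15, 1.79, 2.14 and 3.38. The 1d libraries lay just above all NB libraries, with the lowest at 2.48 against the highest NB value of 2.47, and the other times overlapped NB. The log2 difference was 0.29 ± 0.18 at 6h, 0.53 ± 0.16 at 1d and 0.03 ± 0.16 at 3d. Summed markers of endothelium, 8 genes, were 373 to 391 CPM in NB, 377 to 414 at 6h, 572 to 616 at 1d and 619 to 718 at 3d; their part in the Edn1 values was not tested. Most of that sum is Kdr, a VEGF receptor gene, with means of 249.99 CPM in NB, 450.5 at 1d and 494 at 3d. The junction gene Pecam1 stood at 11.5, 13.4 and 13.5 CPM and the receptor gene Tek at 9.41, 8.16 and 13.1 in the same groups, so the list did not move as one.

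Retinal Edn3 was near the lower limit of measurement, at 0.643 to 1.76 CPM in NB (7 to 44 reads). The 6h libraries spread from 5.41 through 3.04 to 1.1202 CPM, so that 2 lay above NB and 1 inside it. Those same 6h libraries, in that order, carried the melanocyte gene Mlana at 15.1, 8.31 and 1.22 CPM and summed RPE markers at 701, 746 and 566 CPM, against 312 to 490 CPM of RPE markers in NB. Whether pigmented cells carried into these retinas had a part in the Edn3 values was not tested. The 6h difference was 0.84 ± 0.36 on the log2 scale, and 0.41 without the library at 5.41 CPM. At 1d (0.893 to 1.57 CPM) and 3d (0.347 to 2.21 CPM) Edn3 overlapped NB.

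Of the receptors, retinal Ednrb peaked at 1d. NB libraries read 6.89 to 10.4 CPM with a median of 8.55, 6h libraries 13.1, 13.1 and 16.3, 1d libraries 59.1, 46.7, 39.6 and 52.4, and 3d libraries 11.3, 10.2, 12 and 12. The 1d libraries stood above all others, and the 6h libraries stood above NB and above 3d, which is of the other depth set. The 3d libraries overlapped NB through their lowest library and NB A1 of the deeper set, which read 10.4 CPM. All 3d libraries lay above B1 to B4, the NB libraries of their depth set, of which the highest read 9.80 CPM. Group means were 8.54 ± 1.42 (SD, n = 6), 14.1 ± 1.83 (n = 3), 49.5 ± 8.29 (n = 4) and 11.4 ± 0.854 (n = 4). The 1d mean was 5.79 times that of NB and 4.35 times that of 3d. On the log2 scale the differences from NB were 0.70 ± 0.13, 2.47 ± 0.12 and 0.40 ± 0.12 at 6h, 1d and 3d.

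Ligand and receptor thus shared a peak group and differed afterwards. From 1d to 3d the Edn2 mean came down 1.84-fold and the Ednrb mean 4.35-fold, and at 3d all 4 Edn2 libraries were still above NB. The 3d Ednrb libraries were all above NB of their own depth set, but the lowest of them was below NB A1. Within the 1d group the third library had the lowest Edn2 (61.7 CPM) and the lowest Ednrb (39.6 CPM). It also had the highest rod marker sum, 13349 CPM against 7552 to 10607 in the other 1d libraries, and the lowest Gfap, 479 CPM against 522 to 570. The part of tissue makeup in these differences was not tested. Summed Müller markers (6 genes) were 4156 to 4661 CPM in NB, 2136 to 2436 at 1d and 4922 to 5323 at 3d. Most of the lower sum at 1d is the glutamine synthetase gene Glul, with means of 2698 CPM in NB and 629 at 1d. The members differed in direction: Rlbp1 went from 482 to 375 CPM, whereas Slc1a3 went from 249.5 to 340.3 and Kcnj10 from 71.6 to 100.2, and Aqp4 was at 135 in both groups. Summed astrocyte markers (4 of 5 genes) were 385 to 405 CPM in NB and 844 to 930 at 1d. Here Gfap went from 29.7 to 527 CPM and Aldh1l1 from 13.9 to 97.7, whereas Slc1a2 went from 341 to 259 and S100b from 9.54 to 6.31. The part of Müller glia or astrocytes in the Ednrb values was not tested.

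Retinal Ednra, the receptor known from vascular smooth muscle, showed no such course. Its libraries read 1.82 to 2.77 CPM in NB, 2.00 to 3.15 at 6h, 1.59 to 3.15 at 1d and 2.15 to 2.79 at 3d. Every time overlapped NB, and the log2 differences were 0.06 ± 0.17, 0.02 ± 0.16 and 0.12 ± 0.16.

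Ece1, the enzyme gene, was read deeply (522 to 1921 reads a retina library) and shifted by little. NB libraries ran from 47.7 to 55.9 CPM with a median of 51.7. The 6h libraries read 62.6, 61.5 and 61.6 CPM, the 1d libraries 75.6, 62.2, 70.3 and 64.8, and the 3d libraries 65.9, 70.3, 64.6 and 61.7. All of these lay above all of NB, and the 3 times overlapped each other. The log2 differences were 0.26 ± 0.06, 0.40 ± 0.05 and 0.34 ± 0.05, or 1.2, 1.32 and 1.27 times the NB mean.

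By groups that did not overlap, then, 2 of the 6 genes stood above NB in retina at 6h (Ednrb and Ece1), 4 at 1d (Edn2, Edn1, Ednrb and Ece1) and 2 at 3d (Edn2 and Ece1), and none stood below. Among all 16926 retina genes tested, 16.1% stood above NB in this sense at 6h, 16.3% at 1d and 13.5% at 3d, and 18.5%, 18.1% and 17.7% stood below. Nothing is read from that comparison, since the genes were chosen with these values known.

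In RPE libraries Edn2 again had its highest group at 1d, at lower levels and with a wide spread. The NB libraries read 0.70, 0.44, 0.55, 1.24 and 0.31 CPM, from only 4 to 17 reads each. The 6h libraries read 3.65, 0.67 and 1.08 CPM, the 1d libraries 12.1, 15.3, 3.55 and 5.16, and the 3d libraries 2.55, 1.54, 3.48 and 2.31. The 1d libraries lay above NB and above 3d, the 3d libraries lay above NB, and 6h overlapped NB and both later groups. Means were 0.646 ± 0.363 (SD, n = 5), 1.80 ± 1.61 (n = 3), 9.02 ± 5.58 (n = 4) and 2.47 ± 0.799 (n = 4), that is 13.9 times the NB mean at 1d and 3.81 times at 3d. The log2 differences were 0.83 ± 0.45, 2.89 ± 0.42 and 1.38 ± 0.42, and the 6h value was 0.30 without its highest library. At these low counts the added 0.5 shrinks the difference: edgeR on the recovered reads gave 3.78 at 1d and 1.91 at 3d.

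Retinal transcripts were present in these RPE libraries, and their levels stand beside the Edn2 values. Set against the mean of retina, whose table was normalized separately, RPE Edn2 was at 21.5% in NB, 30.9% at 6h, 11.1% at 1d and 5.58% at 3d. The glial filament gene Gfap stood at 46.1%, 32.4%, 10.5% and 6.63% in the same groups. Its NB mean in RPE rests mostly on B4, at 48.9 CPM against 2.91 to 7.46 in the other NB libraries. Shares of other genes ran differently. The rod gene Gnat1 stood at 10.4%, 26.8%, 30.4% and 21.1%, and the share of every other rod marker was also higher at 1d than in NB. These shares move with the retinal level too. From NB to 1d, Gnat1 went from 13634 to 5041 CPM in retina and from 1414 to 1531 in RPE, and retinal Edn2 from 3.00 to 81.4. In RPE, Nrl stood at 168 and 152 CPM and Pde6b at 195 and 192, whereas Sag went from 394 to 670 and Cnga1 from 49.3 to 62.8. The glial gene Slc1a3 stood at 8.69%, 11.9%, 7.24% and 8.06%, and Lif at 420%, 9.36%, 22.3% and 102%. At 1d the 2 libraries with the most Edn2, at 12.1 and 15.3 CPM, had summed rod markers of 3818 and 3200.4 CPM and Gfap at 86.1 and 69.4 CPM. The other 2, at 3.55 and 5.16 CPM, had rod sums of 2058 and 1354 CPM and Gfap at 31.2 and 33.6 CPM. The 6h library with the highest rod sum, 6084 CPM, read 1.08 CPM of Edn2, where mean retinal Edn2 was 5.82 CPM at 6h against 81.4 at 1d. The 6h library with the most Edn2, 3.65 CPM, had the highest Gfap of 6h, 104 CPM, and a rod sum of 3616 CPM. How much of RPE Edn2 came from retinal RNA was not tested.

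**Figure D2:**
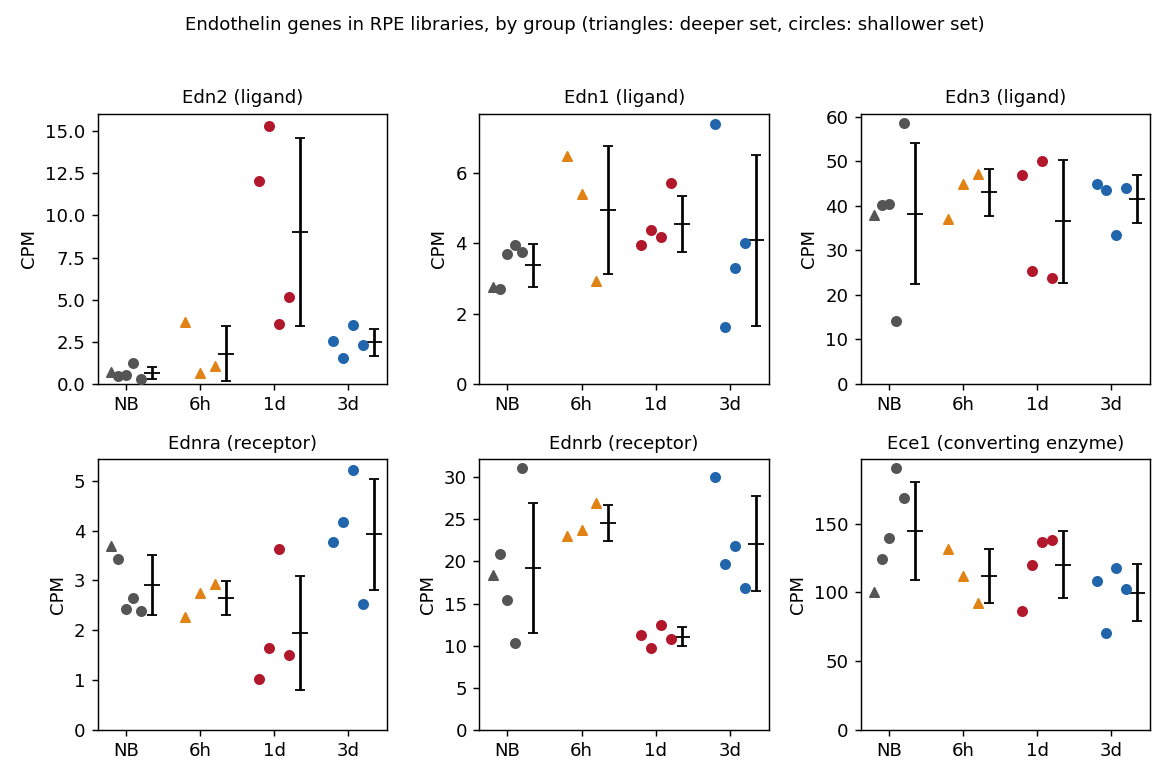
CPM of the 6 endothelin genes in each RPE library, by group, with 1 panel per gene and its own axis from 0; triangles are deeper libraries, circles shallower ones, and black bars the mean and SD. Edn2 spreads from 3.55 to 15.3 CPM at 1d, and Ednrb at 1d (9.74 to 12.5) lies below 6h and 3d but overlaps NB through 1 library at 10.2.

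Edn3 was read far better in RPE libraries than in retina, at 38.2 ± 15.8 CPM in NB (SD, n = 5) against 1.36 ± 0.425 in NB retina, the tables again being normalized separately. NB libraries read 37.9, 40.1, 40.5, 14.1 and 58.6 CPM, 6h libraries 37.2, 44.9 and 47.2, 1d libraries 46.9, 25.5, 50.1 and 23.9, and 3d libraries 44.9, 43.6, 33.5 and 44.0. No time separated from NB, with log2 differences of 0.29 ± 0.35, -0.01 ± 0.32 and 0.24 ± 0.32. The lowest NB library, B3, also had the lowest summed melanocyte markers of NB (322 CPM over 4 genes, Sox10, Kit, Mlana and Gpr143) and the highest surface epithelium sum of NB, 35196 CPM. The highest, B4, had the highest melanocyte sum of NB, 464 CPM. Summed markers of vessel mural cells and of fibroblasts were likewise lowest of NB in B3 (222 and 199 CPM) and highest in B4 (720 and 481 CPM). Within the melanocyte list Sox10 was lowest in B3, at 48.9 CPM, but read 72.0 in B4 against 81.7 in A1 and 79.0 in B2. At 1d the library with the most Edn3 had the lowest Sox10, 38.9 CPM. RPE cells share Mlana and Gpr143 with melanocytes, and the part of cell makeup in the Edn3 spread was not tested.

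**Figure D3:**
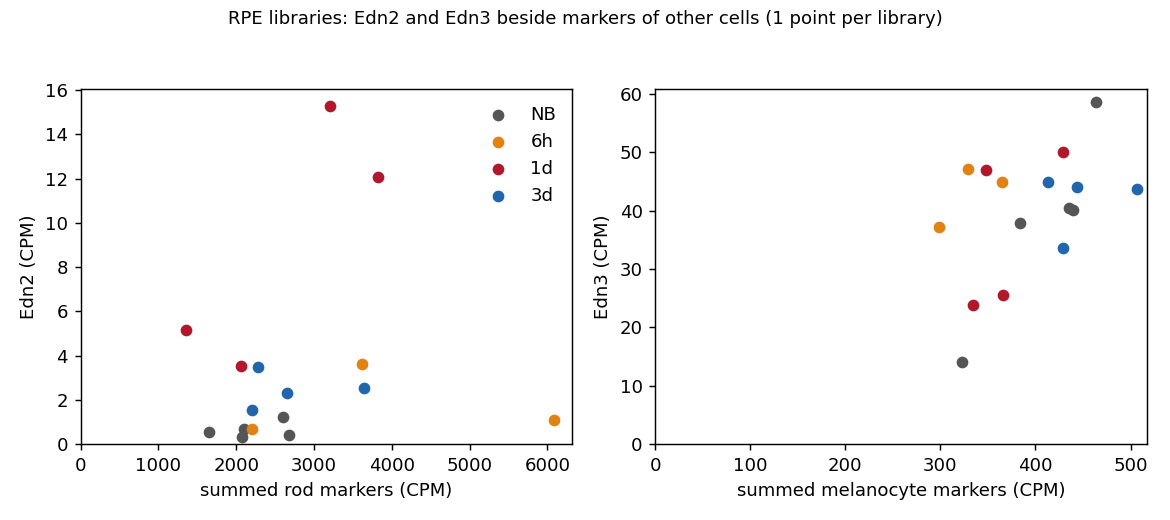
Each point is 1 RPE library, coloured by group. Left, Edn2 against the summed CPM of 5 rod markers. The 1d libraries at 12.1 and 15.3 CPM have rod sums of 3818 and 3200.4. The library with the highest rod sum, 6084, is of 6h and reads 1.08. Mean retinal Edn2 was 5.82 CPM at 6h and 81.4 at 1d. Right, Edn3 against the summed CPM of 4 melanocyte markers; NB libraries hold both the lowest Edn3 value, 14.1 CPM, and the highest, 58.6.

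Ednrb in RPE libraries went the opposite way from retina at 1d. The NB libraries read 18.4, 20.9, 15.5, 10.2 and 31.1 CPM and the 6h libraries 23.0, 23.8 and 27.0. At 1d the values were 11.3, 9.74, 12.5 and 10.8 CPM, and at 3d 30, 19.7, 21.9 and 16.8. The 1d libraries were all below 6h and below 3d, and below every NB library but B3, which read 10.2 CPM and overlapped them. Means were 19.2 ± 7.73 (SD, n = 5), 24.6 ± 2.12 (n = 3), 11.1 ± 1.15 (n = 4) and 22.1 ± 5.67 (n = 4), with log2 differences from NB of 0.43 ± 0.25, -0.69 ± 0.23 and 0.25 ± 0.23. Without B3 the 1d difference was -0.88. The 1d mean was 2.22-fold below that of 6h, and 3d was 2.00 times the 1d mean. Summed RPE markers were 5568 to 10054 CPM at 1d against 12699 to 22412 in NB, and the melanocyte sum was 334 to 429 CPM at 1d against 322 to 464 in NB. In retina all 4 1d libraries lay above their NB mean and in RPE all 4 lay below theirs; that difference between tissues was not tested.

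The remaining RPE values overlapped NB at every time. The mean of Edn1 was 3.37 ± 0.601 CPM (SD) over the NB libraries, 4.94 ± 1.83 over those of 6h, 4.55 ± 0.794 over those of 1d and 4.08 ± 2.43 over those of 3d. Ednra averaged 2.91 ± 0.603, 2.65 ± 0.340, 1.95 ± 1.15 and 3.92 ± 1.11 CPM in the same groups; its 1d libraries read 1.03, 1.64, 3.63 and 1.51, so that 3 lay below all of NB and the other near its top. Ece1 read 100.3, 125, 140.0, 191 and 169 CPM in NB and averaged 112 ± 19.7, 120.3 ± 24.2 and 99.99 ± 20.4 at 6h, 1d and 3d. Its log2 differences, -0.35 ± 0.22, -0.26 ± 0.20 and -0.52 ± 0.20, had the sign opposite to those of retina. Against NB A1 alone, the NB library of its depth set, the 6h difference of Ece1 was 0.14.

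By non-overlap, none of the 6 genes stood above NB in RPE at 6h, and 1, Edn2, did at 1d and at 3d; none stood below. Among 16712 RPE genes tested, 6.70% stood above NB at 6h, 3.14% at 1d and 2.48% at 3d, and 5.98%, 5.27% and 1.34% stood below. As in retina, nothing is read from it.

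**Figure D4:**
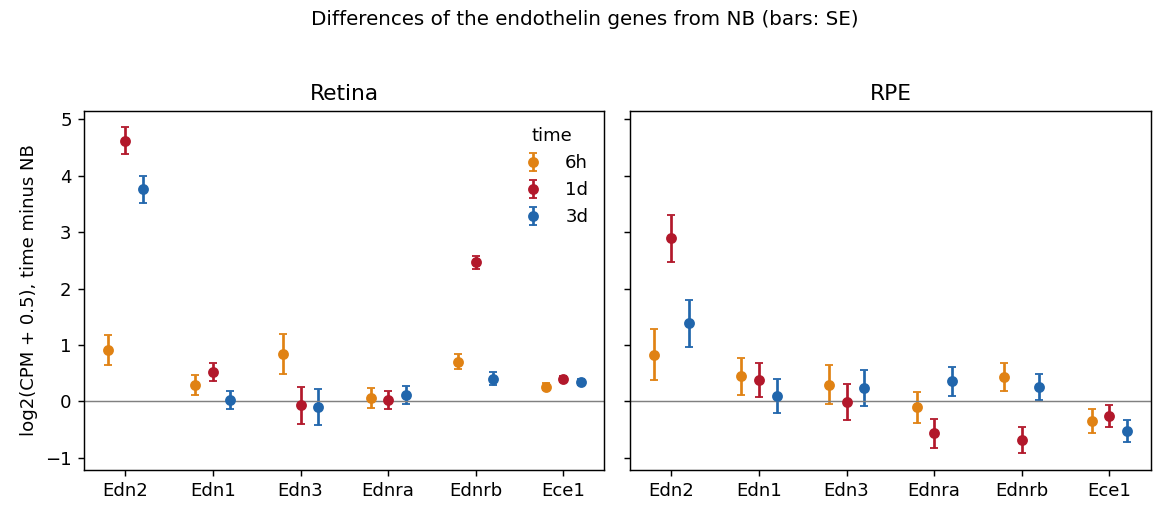
Difference of log2(CPM + 0.5) from NB for the 6 endothelin genes at 6h, 1d and 3d, with the SE of the fit as bars, in retina on the left and RPE on the right. Edn2 is highest at 1d in both tissues (4.63 and 2.89), and Ednrb at 1d is 2.47 in retina and -0.69 in RPE.

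The genes around the endothelin system were read next, in 6 lists that leave out the members themselves; 74 of their 86 genes were tested in retina and 73 in RPE, by limma with Benjamini-Hochberg adjustment over all genes of the tissue. In retina 29 rose and 9 fell at 6h, 35 rose and 14 fell at 1d, and 30 rose and 11 fell at 3d. With reads scaled to library totals in place of the authors' factors these counts were 33 and 6, 43 and 7, and 44 and 5, and the median of all retina genes moved to 0.15 at 1d and 0.12 at 3d. By the authors' scaling, the share of listed genes called was 51.4%, 66.2% and 55.4%, where limma called 35.4%, 51.5% and 43.2% of all 16926 genes. The lists were chosen with earlier results of these data known, so nothing is read from that comparison. For the same reason the calls and adjusted p-values of listed genes, here and below, are descriptions. Over all genes limma called 16.9% higher and 18.5% lower at 6h, 24.0% and 27.5% at 1d, and 19.3% and 23.9% at 3d; by library totals 56.7%, 74.3% and 77.0% of the called genes were higher, against 47.6%, 46.5% and 44.6%. The median log2 difference of the listed genes was 0.14, 0.14 and 0.16 beside 0.00, -0.01 and -0.02 over all genes. In RPE 5 rose and 1 fell at 6h, 7 rose and 4 fell at 1d, and none passed at 3d, where limma called 1.46%, 5.61% and 0.180% of 16712 genes. Split by direction these were 0.808% higher and 0.652% lower at 6h, 1.77% and 3.84% at 1d, and 0.162% and 0.0180% at 3d. At 3d in RPE edgeR called 0 listed genes and DESeq2 called 2.

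Among the proteases of endothelin processing, 7 were tested in retina, and the calls depended on the scaling. By the authors' scaling Pcsk5, a proprotein convertase gene, alone passed, rising from 7.06 ± 0.458 CPM in NB to 9.82 ± 1.28 at 1d (log2 difference 0.44 ± 0.10, adjusted p = 0.000675) and 11.9 ± 1.42 at 3d (0.72 ± 0.10, adjusted p = 9.15e-06). Furin, the convertase that first cuts endothelin precursors, read 63.5 CPM in NB and 67.0 at 1d (adjusted p = 0.370). Ece2, a second converting enzyme gene, read 6.36 and 7.07 CPM (adjusted p = 0.267). By library totals limma called both higher at 1d, Furin at 0.24 on the log2 scale (adjusted p = 0.00325) and Ece2 at 0.30 (adjusted p = 0.0186), where the median of all genes was 0.15. None of the 5 tested in RPE passed at any time; Furin there read 91.3 CPM in NB and 69.3 at 6h (adjusted p = 0.105).

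Genes of receptor coupling, 21 in all and all tested, counted 9 higher and 1 lower in retina at 6h, 13 and 2 at 1d, and 9 and 1 at 3d, with a median log2 difference of 0.14, 0.20 and 0.14. By library totals the counts were 11 and 0, 15 and 2, and 16 and 0. Rock2, a kinase below RhoA, rose from 121 ± 8.97 CPM in NB to 209.5 ± 4.09 at 1d (0.80 ± 0.06, adjusted p = 1.48e-09). Gnai2, an inhibitory G protein subunit, rose from 131 CPM to 170.3, 189 and 207 at 6h, 1d and 3d, and Arrb1, which codes for a beta-arrestin, from 136 to 165, 176 and 166. Prkca, which codes for protein kinase C alpha, a kinase also used to mark rod bipolar cells, rose to 408 CPM at 6h from 353 in NB and fell to 274 at 1d (-0.37 ± 0.05, adjusted p = 1.71e-06). In RPE, Itpr1, an inositol trisphosphate receptor gene, fell from 168 ± 65.1 to 62.0 ± 9.78 CPM at 1d (-1.37 ± 0.23, adjusted p = 0.00183), and Rock2 rose from 54.3 to 73.0 CPM (0.43 ± 0.10, adjusted p = 0.0199, and 0.0528 by library totals).

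The LIF and STAT3 list, 10 genes of the cytokine route that Müller glia use under injury, counted 8 higher and 0 lower in retina at 6h, 6 and 0 at 1d, and 6 and 2 at 3d, or 9 and 0, 8 and 0, and 7 and 1 by library totals. Within the list Lif differed from Edn2 in timing, whereas some other genes shared the peak group of Edn2. The cytokine gene Lif stood at 0.718 CPM in NB, 48.0 at 6h, 14.1 at 1d and 2.32 at 3d. It was thus highest at 6h, where Edn2 overlapped NB through B2 and lay above A1 and A2 of its depth set. Socs3, a feedback inhibitor, read 3.27, 27.1, 68.8 and 14.0 CPM and Stat3 68.0, 309, 380.3 and 149, both with their highest mean at 1d. In RPE, Osmr, Cebpd and Socs3 rose at 6h and at 1d, and Stat3 rose at 1d (156 to 243 CPM, log2 difference 0.64 ± 0.11, adjusted p = 0.00226). RPE Osmr, a receptor chain gene of the same cytokine family, rose from 105 CPM in NB to 277 at 6h and 615 at 1d.

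Glial readouts (8 genes) counted 7 higher and none lower in retina at each time. Gfap rose from 29.7 ± 2.87 CPM in NB to 187 ± 48.1, 527 ± 37.7 and 271 ± 53.3 at 6h, 1d and 3d, and Fgf2, a growth factor gene, from 18.5 to 35.6, 60.2 and 34.2. In RPE Gfap alone passed, at 1d (13.7 ± 19.8 to 55.1 ± 27.1 CPM, adjusted p = 0.020), and NB B4 there read 48.9 CPM against 2.91 to 7.46 in the other NB libraries. Of 13 hypoxia genes tested in retina, 2 rose and 6 fell at 6h, 2 and 9 at 1d, and 2 and 7 at 3d; by library totals the split was 2 and 5, 3 and 4, and 4 and 3, so the excess of falls at the later times depended on the scaling. Ldha, a lactate dehydrogenase gene, fell from 972 to 666 CPM at 1d (-0.55 ± 0.06, adjusted p = 2.80e-07), and Egln3, which codes for an oxygen-sensing prolyl hydroxylase, rose from 3.50 to 6.97 (0.88 ± 0.12, adjusted p = 3.67e-06). In RPE, Vegfa fell from 287 ± 94.9 to 102 ± 11.9 CPM at 1d (-1.44 ± 0.21, adjusted p = 0.000727), and Slc2a1, a glucose transporter gene, fell at 1d (1058 to 628 CPM) and at 6h (538 CPM, adjusted p = 0.0295, and 0.0640 by library totals).

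Of 15 genes of other vasoactive systems tested in retina, 3 rose and 2 fell at 6h, 6 and 3 at 1d, and 5 and 1 at 3d. By library totals the split was 4 and 1, 7 and 1, and 9 and 1, so the number of falls depended on the scaling at 6h and 1d and the number of rises most at 3d. Apln, the gene of the peptide apelin, fell from 1.84 ± 0.50 to 0.378 ± 0.222 CPM at 1d (-1.42 ± 0.18, adjusted p = 2.64e-06). Nos2, an inducible nitric oxide synthase gene, rose from 0.406 to 1.51 CPM at 1d (1.18 ± 0.20, adjusted p = 5.78e-05), and Ptgs2, which codes for the inducible cyclooxygenase, from 0.614 to 2.67 at 6h. Agt, the angiotensinogen gene, rose from 7.73 to 14.5 CPM at 3d (0.89 ± 0.15, adjusted p = 7.31e-05). Ramp2, a partner of the adrenomedullin receptor, rose in retina at all 3 times and in RPE at 6h (22.5 to 39.7 CPM) and 1d (46.5 CPM). In RPE Npr1, a natriuretic peptide receptor gene, fell from 39.4 ± 8.17 to 17.7 ± 4.19 CPM at 1d (-1.13 ± 0.20, adjusted p = 0.00339). The RPE counts at 6h rest on single libraries: leaving out 1 library at a time gave 1 to 10 listed genes in place of 6, with 1 called without the first 6h library, 1 without the third, 3 without NB B1 or without NB B2, and 10 without NB A1. NB A1 is the only NB library of RPE in the depth set of 6h.

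Genes were last ranked by likeness to each member that moved by at least 1 on the log2 scale, as the root mean square difference of log2(CPM + 0.5) minus the NB mean over all libraries of the tissue. Over the 17 retina libraries and 16920 genes, those nearest to Edn2 were A2m (0.72), Nlrc5 (0.76), Tnnt2 (0.87), Gfap (0.87) and Serpine3 (0.90). A2m, a protease inhibitor gene, read 11.7, 48.1, 225 and 94.7 CPM in NB, 6h, 1d and 3d, and Gfap differed from Edn2 most at 6h, where it was 2.61 above NB against 0.91. Stat3 ranked at 114, Fgf2 at 236 and Lif at 514. For Ednrb the nearest were Tubb2b (0.30), Sox30 (0.31), S100a10 (0.31), Il1rn (0.31) and Irf9 (0.32), and Fgf2 ranked at 55, Stat3 at 325, Gfap at 16293 and Lif at 16758. The measure is not scaled for the size of a change, so a late rank does not mean an unlike time course. Gfap was highest at 1d as Ednrb was, at 4.13 above NB against 2.47. Il1rn, an interleukin-1 antagonist gene, reached only 1.80 CPM at 1d, so its likeness rests on few reads. Edn2 and Ednrb had separate sets of 5 nearest genes, which follows from the unlike sizes of their own changes, so nothing more is read from it.

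In the 16 RPE libraries the genes nearest to Edn2 were Crym (0.48), Lrrc2 (0.54), Npy4r (0.59), Sulf2 (0.63) and Ptprn (0.66), with Gfap at rank 274. Crym, which codes for a thyroid hormone-binding crystallin, read 2.48, 5.77, 30.4 and 9.46 CPM in NB, 6h, 1d and 3d. These ranks describe likeness in these libraries, which share depth sets and cell makeup.

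**Figure D5:**
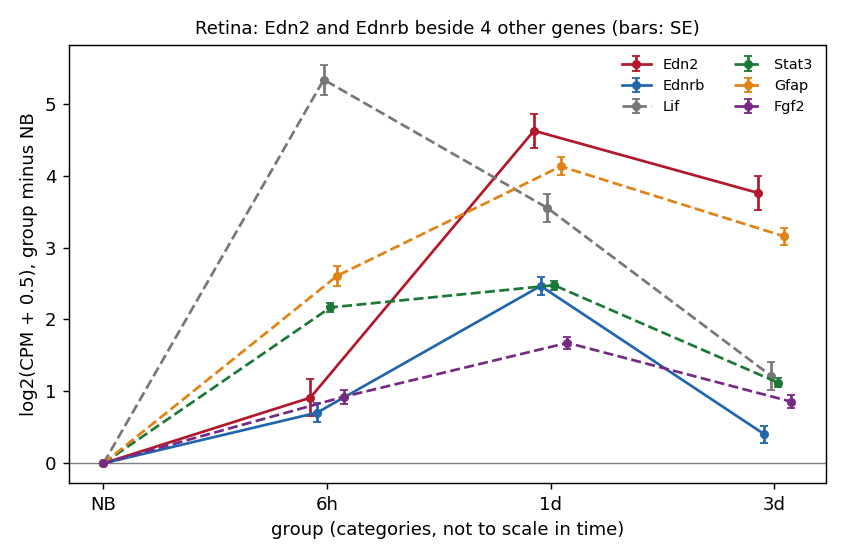
Mean difference of log2(CPM + 0.5) from NB in retina for Edn2 and Ednrb (solid lines) beside Lif, Stat3, Gfap and Fgf2 (dashed lines), with the SE as bars; the groups are categories and the axis is not to scale in time. Lif is highest at 6h (5.34), Edn2 at 1d (4.63), and at 3d Edn2 is at 3.76 and Ednrb at 0.40.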

How the data were processed

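RNA libraries of retina (17) and RPE (16) were analysed. Trimmomatic, STAR, edgeR and the GRCm38 build are named in the submitters' processing notes; versions and the read counter are not given in the sources used here. Each deposited signal value is a CPM that the authors scaled by an effective library size, per the file headers and the values, and all values were whole multiples of 1 read within 0.01 of a read (100% of values), from which reads were recovered. Low genes had been removed by the authors by a rule not given in the sources used here. The deposited log2 fold changes, shrunk by the authors per the file headers, are quoted where named; the deposited p-value was not used. Retina and RPE were normalized separately.

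Values were fitted as log2(CPM + 0.5) with limma 3.58.1 in R 4.3.3, all groups of a tissue together, with a variance trend and Benjamini-Hochberg adjustment over genes that reached a CPM of 1 in 3 or more libraries, at a threshold of 0.05. The fit was tested on simulated data. Errors are SD for CPM and SE for log2 differences. Alternatives were pseudocounts 0.1 and 2, no filter, library totals, recomputed TMM factors, fits of the compared groups alone, NB of the same depth set, each library left out, edgeR 4.0.16 and DESeq2 1.42.0 on recovered reads. Each library is 1 mouse per the labels. NB columns were matched to their group only, and the letters A and B stand for 2 spellings of their names. No library pair of a group was identical or differed by sampling noise alone.

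The members, gene lists and markers were chosen with earlier results of these data known. Named genes were all members, in each contrast the 4 genes per list of lowest adjusted p, the 5 genes nearest to each member whose largest difference from NB was at least 1, and Lif, Stat3, Gfap and Fgf2. Gene and promoter positions are RefSeq's (GRCm38.p6). Markers named beside values are Krt5, the melanocyte list and genes of the rod, endothelium, Müller and astrocyte lists. Some marker genes are not reported here and were left out of the marker sums.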

Additional observations from a re-analysis of the deposited data

Results flagged for a closer look

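Of 36 groups of endothelin gene values with 4 to 6 libraries, 1 held a library far from the others: the third 3d library of RPE, where Edn3 read 33.5 CPM and the next lowest library read 43.6, a gap of 0.891 of the group's whole range. Chance alone marks about 1 group in 20. 

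In 4 cases every retina library lay on one side of its NB mean and every RPE library on the other. For Ednrb at 1d the retinal difference exceeded that of RPE by 3.15 on the log2 scale. For Ece1, higher in retina and lower in RPE, it did so by 0.61 at 6h, 0.65 at 1d and 0.87 at 3d. These differences between tissues were not tested.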

How the results depend on the processing

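No paired analysis was possible because the NB columns repeat their replicate numbers between 2 spellings of the name, so NB libraries carry no number that other groups share. The Edn2 difference in retina, 4.63 at 1d and 3.76 at 3d, was 4.08 and 3.24 with a pseudocount of 2, and at 6h 1.59 against NB of the same depth set in place of 0.91. Left-out libraries gave 0.70 to 1.14 at 6h, 4.41 to 4.76 at 1d and 3.55 to 3.89 at 3d. Ece1 in RPE at 6h turned from -0.35 to 0.14 against NB of its depth set, which is 1 library. Edn2 in RPE was 1.92 at 1d and 0.75 at 3d with a pseudocount of 2.

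Counts in RPE depended on the settings. At 6h the 244 called genes became 147 with library totals, 452 with only the groups compared, 383 with edgeR, 1250 with DESeq2 and 0 against NB A1 alone (1816 at an unadjusted p below 0.05), where the 6 listed genes also became 0. The 937 genes at 1d became 537 with only the groups compared and 1668 with DESeq2, and the 30 at 3d became 19 and 139. Listed genes at 3d went from 0 to 1 with library totals and 2 with DESeq2. Left-out libraries gave 9 (without the first 6h library) to 1011 (without NB A1) genes at 6h and 1 to 10 listed ones, 618 to 1426 (without NB B2 and without NB B3) genes at 1d, 15 to 35 genes at 3d and 0 to 1 listed ones. The cause was not tested. Library totals moved the share of higher among called retina genes from 47.6% to 56.7% at 6h, 46.5% to 74.3% at 1d and 44.6% to 77.0% at 3d, with the median of all genes at 0.15 and 0.12 at 1d and 3d, and from 55.3% to 81.0% in RPE at 6h. Low counts limit Edn3 in retina and Edn2 in NB RPE.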
